A study of Mus musculus with 23 samples.

Results

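The genes described here encode the subunits of the mitochondrial respiratory chain and ATP synthase, with the testis isoforms of some of them. Members were taken by name from the deposited gene table, as every gene whose symbol starts with Nduf, Uqcr, Atp5, or Cox followed by 4 to 8, together with Sdha to Sdhd, Cyc1, Cycs and Cyct. Pseudogenes were left out. This gave 97 of the 27466 genes of the table, namely 37 of complex I, 8 assembly factors of complex I, 4 of complex II, 9 of complex III, 2 cytochromes c, 20 of complex IV and 17 of ATP synthase. The rule used names only, and the set was chosen with earlier results of these data known.

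Poly(A) RNA of CD-1 mouse testes was sequenced through the first wave of spermatogenesis. In vivo testes were from mice of 36.5, 22.5, 10.5 and 6.5 days postpartum (dpp), and explants of fresh 6.5 dpp testes (FT) were kept in organ culture with serum replacement and retinol for 4 (D4), 16 (D16) or 30 days (D30), which brought them to the ages of the 3 older in vivo groups in turn. Controlled slow freezing (CSF), a way of storing prepubertal tissue, was applied to 6.5 dpp testes that were sequenced after thawing or cultured to D30. Of the mice, no other treatment or genotype is given, and the dead centre of each cultured explant was cut away before extraction. The 6.5 dpp group held 4 libraries (FT replicate 2 and CSF replicates 1 to 3) and the D30 group 4 (FT replicates 1 to 3 and CSF replicate 1). There were 3 libraries each of 10.5 dpp, 22.5 dpp and D4, and 2 each of 36.5 dpp and D16. The study pooled explants for each culture replicate. The labels do not tie libraries to animals, so p-values measure the spread between libraries, which for the cultures are pools of explants.

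The 21 libraries held 28351546 to 69029328 counts. The 6.5 dpp FT replicate 1 library was left out because its levels were like those of late cultures, and FT replicate 3 because its counts were those of replicate 2. Short transcripts were not equally represented in all libraries. A short-gene index (the median log2 level of 349 genes under 1000 bases of exon minus that of 4452 genes of 2000 to 4000 bases, no members among them) was 1.19 in 6.5 dpp CSF 3, 0.95 in 36.5 dpp FT 1, 0.56 in D30 CSF 1, 0.29 in D16 FT 1 and 0.28 in D30 FT 2, and between -0.54 and 0.11 in the other 16. The members are short, with a median exon length of 977 bases against 2864 for all protein-coding genes, and they took up 0.604 to 1.29% of counts in 20 libraries and 2.04% in 6.5 dpp CSF 3. Counts of members called are therefore also given without these 5 libraries, and in a fit with the index as a covariate. Shares of all genes are those of the fit of all 21 libraries, and are not given for the alternative fits.

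**Figure D1:**
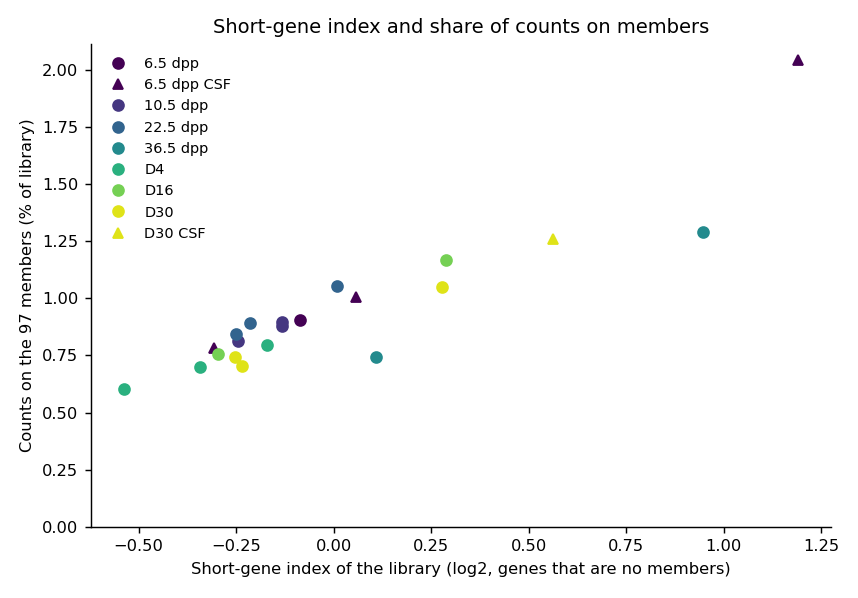
Share of each library's counts that fell on the 97 members (vertical axis, percent) against the short-gene index of that library (horizontal axis, log2), for the 21 libraries; colours give the group and triangles the frozen (CSF) libraries. The 6.5 dpp CSF 3 library stands at the top right, at 2.04% and an index of 1.19, and the 4 libraries with the highest index hold the 4 highest shares.

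Oxidative phosphorylation couples the transfer of electrons to the making of ATP in the inner mitochondrial membrane. Complex I takes electrons from NADH and complex II from succinate, complex III passes them to the soluble carrier cytochrome c, complex IV hands them to oxygen, and ATP synthase uses the resulting proton gradient. Some subunits of complex IV, and cytochrome c itself, have a second gene that is read in male germ cells from meiosis onwards, and these testis isoforms (Cox8c, Cox6b2, Cox7b2 and Cyct) stand beside the genes used by most cells (Cox8a, Cox6b1, Cox7b and Cycs).

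The 4 testis isoforms were low in young testes and rose between 10.5 and 22.5 dpp. Of the general partners, Cox8a and Cox6b1 passed as lower at 22.5 dpp and Cox7b and Cycs did not, beside 27.9% of all genes lower. On library totals all 4 partners stood lower in every 22.5 dpp library than in every 10.5 dpp library. The share of all genes that separated in this way is not given here. Cox8c, the testis form of the small subunit 8 of complex IV, was at 2.69, 2.02, 2.09 and 3.39 CPM (counts scaled to the library total) in the 6.5 dpp libraries and at 2.11, 2.73 and 2.58 CPM at 10.5 dpp. It stood at 403, 296 and 549 CPM at 22.5 dpp and at 581 and 387 CPM at 36.5 dpp. The older groups lay wholly above the younger ones (log2 fold change 7.71 ± 0.58, adjusted p = 5.61e-09 by edgeR's quasi-likelihood test for 22.5 against 10.5 dpp). Its partner Cox8a, in the same libraries, went from 90.6, 98.6 and 101 CPM at 10.5 dpp to 26.3, 44.7 and 38.4 CPM at 22.5 dpp and 34.5 and 20.3 CPM at 36.5 dpp, again without overlap (log2 fold change -1.12 ± 0.25, adjusted p = 0.000768 for 22.5 against 10.5 dpp). Per kilobase of exon, the mean level of Cox8c ranked 86 of the 96 members with a known length at 10.5 dpp and 1 of 96 at 22.5 and at 36.5 dpp.

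Cox6b2, the testis form of a subunit that sits at the dimer interface of complex IV, was at 13.8 to 24.9 CPM in the 7 libraries of 6.5 and 10.5 dpp. At 22.5 dpp it was at 281, 164 and 281 CPM, and at 36.5 dpp at 395 and 229.7 CPM (log2 fold change 4.33 ± 0.53, adjusted p = 1.94e-06 for 22.5 against 10.5 dpp). Cox6b1, the general form, was at 133, 142 and 148 CPM at 10.5 dpp and at 46.2, 53.4 and 51.3 CPM at 22.5 dpp (log2 fold change -1.19 ± 0.50, adjusted p = 0.0449). The 10.5 and 22.5 dpp libraries did not overlap in either gene, though the call on Cox6b1 was lost without any 1 of 10 libraries (adjusted p up to 0.102).

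Cox7b2, the testis form of subunit 7b, was at 14.9, 11.9, 26.6 and 69.026 CPM at 6.5 dpp and 14.3, 16.5 and 17.6 CPM at 10.5 dpp, and at 219, 148 and 196 CPM at 22.5 dpp (log2 fold change 3.85 ± 0.86, adjusted p = 0.000866 for 22.5 against 10.5 dpp). The 2 libraries of 36.5 dpp differed widely, at 705 and 118 CPM, and the higher of them is the one with the high short-gene index. Cox7b went from 37.5, 39.5 and 46.4 CPM to 10.5, 14.5 and 14.984 CPM without overlap, with a difference that did not pass (log2 fold change -1.34 ± 0.63, adjusted p = 0.0724). Without the 5 libraries high in short transcripts (none of them from these ages), the same difference had an adjusted p of 0.000224.

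Cyct, the testis cytochrome c, was at 12.8, 10.4, 12.6 and 34.2 CPM at 6.5 dpp, 7.14, 6.92 and 6.29 CPM at 10.5 dpp, 95.6, 86.6 and 113 CPM at 22.5 dpp and 102 and 62.8 CPM at 36.5 dpp (log2 fold change 4.16 ± 0.56, adjusted p = 6.31e-06 for 22.5 against 10.5 dpp). The highest of the young libraries, 6.5 dpp CSF 3, stayed below the lowest of the older ones. The somatic cytochrome c, Cycs, which has 3 named pseudogenes so that its level is uncertain, was at 12.0, 10.6 and 8.02 CPM at 10.5 dpp, 5.2018, 6.91 and 4.36 CPM at 22.5 dpp and 4.16 and 1.83 CPM at 36.5 dpp, and the first of these steps did not pass (log2 fold change -0.61 ± 0.44, adjusted p = 0.241). Between 22.5 and 36.5 dpp no testis isoform passed the test (adjusted p = 0.221 for Cox8c, 0.17 for Cox6b2, 0.12 for Cox7b2 and 0.729 for Cyct, by edgeR).

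**Figure D2:**
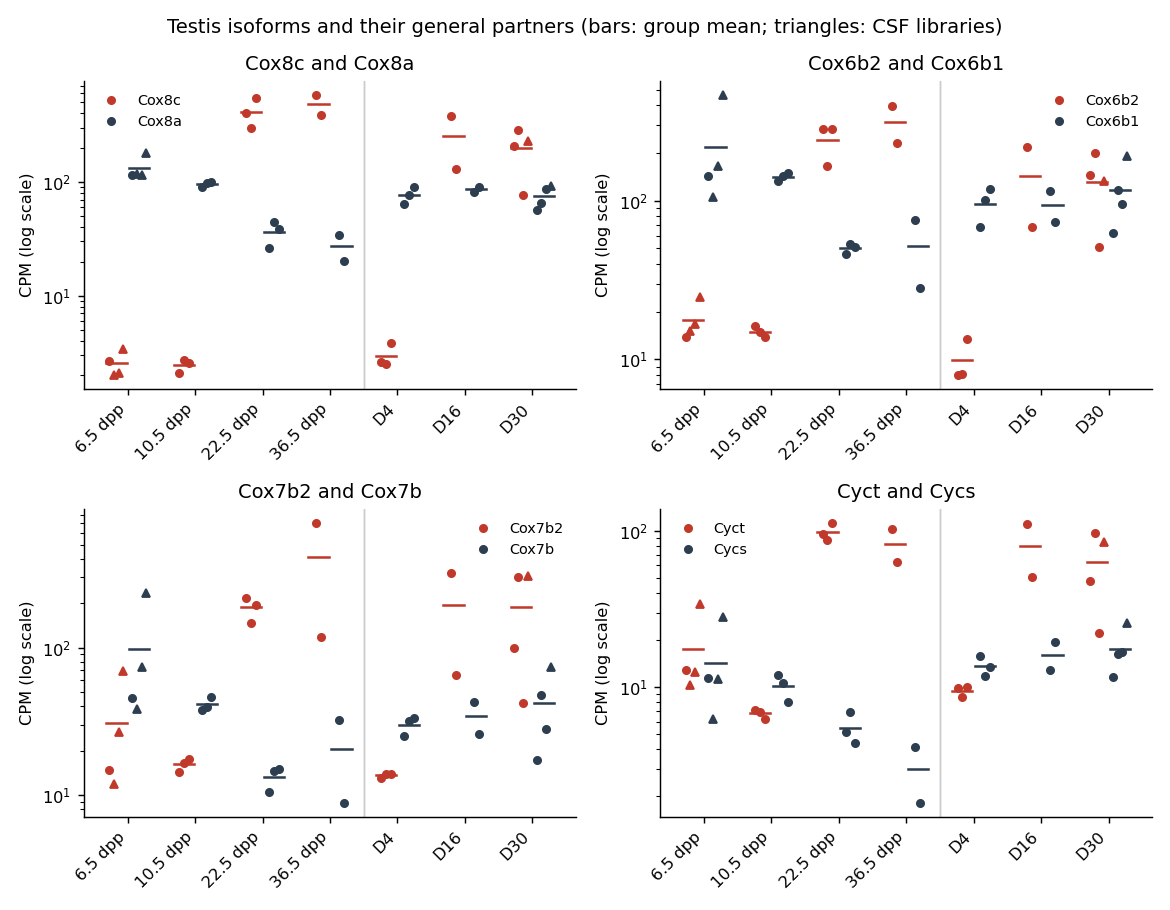
Levels of the 4 testis isoforms (red) and their general partners (dark) in CPM on a log axis, by group; each point is a library, bars are group means and triangles are frozen (CSF) libraries. Cox8c lies at 2.02 to 3.81 CPM at 6.5 dpp, 10.5 dpp and D4 and at 296 to 581 CPM at 22.5 and 36.5 dpp, and the D16 and D30 libraries (76.7 to 378 CPM) reach from below to within the in vivo range.

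In culture the testis isoforms appeared between D4 and D16. Cox8c was at 2.62, 2.49 and 3.81 CPM at D4, 378 and 130.2 CPM at D16 and 207, 285, 76.7 and 230.2 CPM at D30 (log2 fold change 6.48 ± 0.56, adjusted p = 8.49e-08 for D16 against D4). Cox6b2 was at 7.99, 8.06 and 13.5 CPM at D4, 217 and 68.0 CPM at D16 and 144, 199, 50.9 and 132 CPM at D30 (log2 fold change 3.92 ± 0.54, adjusted p = 2.23e-05). Cox7b2 was at 13.025, 14.0 and 13.8 CPM, 322 and 65.1 CPM and 99.8, 303, 41.990 and 307 CPM (log2 fold change 3.90 ± 0.90, adjusted p = 0.00331), and Cyct at 9.84, 8.68 and 9.97 CPM, 110.4 and 50.3 CPM and 47.7, 96.5, 22.3 and 84.969 CPM (log2 fold change 3.14 ± 0.56, adjusted p = 0.00037). All 4 rose from D4 to D16, and none passed from D16 to D30 (adjusted p = 0.942 to 0.998 by edgeR over the 4). D30 FT 3 was the lowest late culture library in all 4 genes. D16 FT 1, D30 FT 2 and D30 CSF 1, which have a high short-gene index, were the 3 highest late culture libraries in Cox8c, Cox7b2 and Cyct, and D16 FT 1 and D30 FT 2 the 2 highest in Cox6b2. The call on Cox7b2 was lost without D16 FT 1 (adjusted p = 0.163).

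Against in vivo testes of the same age, Cox8c and Cox6b2 were lower at D30 than at 36.5 dpp (log2 fold change -1.90 ± 0.43, adjusted p = 0.000974 for Cox8c; log2 fold change -1.86 ± 0.47, adjusted p = 0.00193 for Cox6b2). The same differences did not pass for Cox7b2 (log2 fold change -1.75 ± 0.78, adjusted p = 0.0558) and Cyct (log2 fold change -1.02 ± 0.51, adjusted p = 0.0838). None of the 4 passed at D16 against 22.5 dpp (adjusted p = 0.19 for Cox8c, 0.194 for Cox6b2, 0.933 for Cox7b2 and 0.569 for Cyct). Without the 5 libraries high in short transcripts, where D16 and 36.5 dpp have 1 library each and these are assumed to vary like the other groups, all 4 passed as lower in the single D16 library (FT 2), with log2 fold changes of -1.87 (adjusted p = 0.0127) for Cox8c, -2.03 (adjusted p = 0.0114) for Cox6b2, -1.72 (adjusted p = 0.0169) for Cox7b2 and -1.15 (adjusted p = 0.0209) for Cyct. With the unused 6.5 dpp FT 1 library kept, the D30 calls on Cox8c and Cox6b2 did not pass. Of the partners, 2 were higher in culture, as were markers of Sertoli cells, while those of Leydig cells were lower. The 5 Leydig cell markers summed to 213 to 238 CPM at D16 against 835 to 933 CPM at 22.5 dpp. They summed to 317 to 571 CPM at D30 against 1549 to 1925 CPM at 36.5 dpp, and their part was not tested. The 5 Sertoli cell markers summed to 4996 to 7027 CPM at D16 against 1603 to 2773 CPM at 22.5 dpp, and to 5385 to 9192 CPM at D30 against 675 to 896 CPM at 36.5 dpp (4 of 5 passed as higher at each age, with median log2 fold changes of 1.32 and 2.42), and their part in the changes of the general genes was not tested. Cox8a was higher in culture at D16 (log2 fold change 1.10 ± 0.27, adjusted p = 0.00865) and at D30 (log2 fold change 0.82 ± 0.27, adjusted p = 0.012), with 82.2 and 90.6 CPM at D16 and 57.3, 65.0, 87.1 and 93.0 CPM at D30. Cycs was also higher, at 12.8 and 19.4 CPM at D16 (log2 fold change 1.404 ± 0.49, adjusted p = 0.042) and 11.6, 16.3, 16.8 and 25.8 CPM at D30 (log2 fold change 1.92 ± 0.52, adjusted p = 0.00342). The Cox8a calls were lost without D16 FT 2 (adjusted p = 0.0765) at D16 and 36.5 dpp FT 2 (adjusted p = 0.2) at D30, and those on Cycs without any 1 of 9 libraries (adjusted p up to 0.281) at D16 and 36.5 dpp FT 2 (adjusted p = 0.0646) at D30. Cox6b1 and Cox7b did not pass (adjusted p = 0.309 and 0.186 at D16, 0.386 and 0.613 at D30).

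A ratio of 2 genes within a library does not depend on its total or scaling factor. The log2 ratio of Cox8c to Cox8a counts was -5.41, -5.16 and -5.28 in the 10.5 dpp libraries and -4.59, -4.93 and -4.55 at D4. It was 3.94, 2.73 and 3.84 at 22.5 dpp, 4.07 and 4.25 at 36.5 dpp, 2.20 and 0.52 at D16 and 1.86, 2.13, -0.18 and 1.31 at D30. Every late culture library had a lower ratio than every late in vivo library, and the same held for the other 3 pairs. As means ± SD, the ratio of Cox6b2 to Cox6b1 was 2.23 ± 0.53 (n = 3) at 22.5 dpp, 2.705 ± 0.44 (n = 2) at 36.5 dpp, 0.41 ± 0.73 (n = 2) at D16 and 0.13 ± 1.01 (n = 4) at D30. That of Cox7b2 to Cox7b was 3.81 ± 0.52, 4.09 ± 0.51, 2.12 ± 1.11 and 1.95 ± 0.95 in the same groups, and that of Cyct to Cycs 4.17 ± 0.52, 4.85 ± 0.33, 2.24 ± 1.22 and 1.68 ± 0.92.

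Averaged over both ages, the log2 ratio in culture minus that in vivo was -2.51 for Cox8c to Cox8a, -2.20 for Cox6b2 to Cox6b1, -1.92 for Cox7b2 to Cox7b and -2.55 for Cyct to Cycs. Each had p = 0.00667 in an exact permutation test (two-sided, 150 arrangements of libraries within age), the smallest p the design allows, and adjustment over the 4 pairs left it there. Without the 5 libraries high in short transcripts, the ratio was lower by more, and 12 arrangements allow no p under 0.0833. Per kilobase of exon, Cox8c made up 88.8 to 95.8% of the Cox8c and Cox8a signal at 22.5 and 36.5 dpp and 51.4 to 84.7% at D16 and D30, against 2.02 to 4.85% at 6.5 dpp, 10.5 dpp and D4. For Cox6b2 in its pair these shares were 72.0 to 87.1%, 30.7 to 65.6% and 4.29 to 10.6%. For Cox7b2 and Cyct the shares at 6.5 dpp, 10.5 dpp and D4 were higher, at 35.1 to 49.03% for Cox7b2 and 73.95 to 88.7% for Cyct. By this measure Cyct was the larger form of its pair in every group, early ones included, though the level of Cycs is uncertain.

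**Figure D3:**
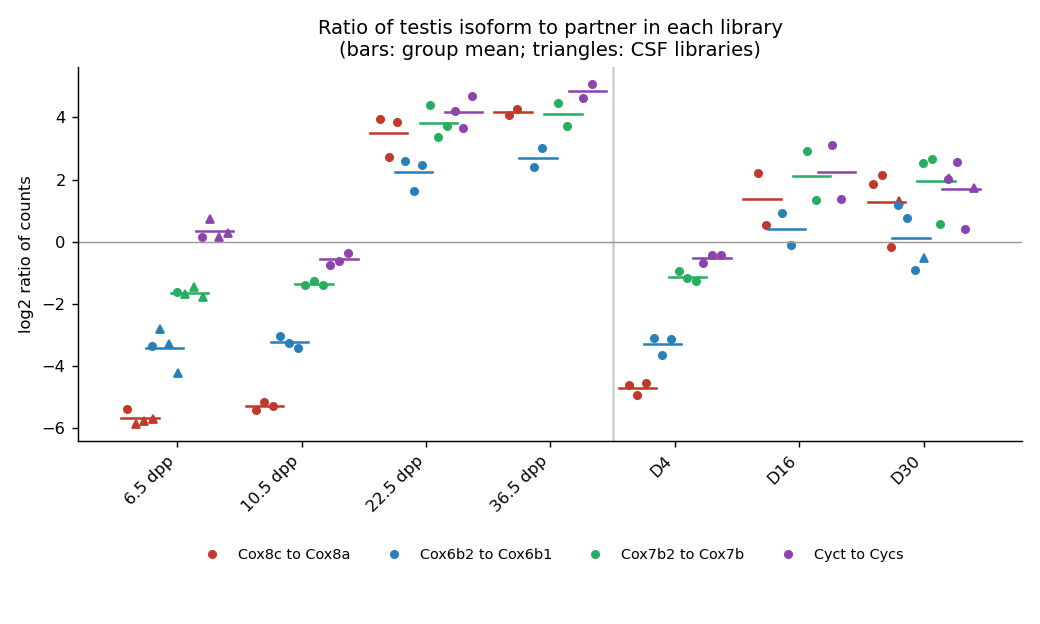
Log2 ratio of testis isoform to general partner counts in each of the 21 libraries, by group; colours give the pair, bars are group means and triangles are frozen (CSF) libraries. All 4 ratios are highest at 22.5 and 36.5 dpp (Cox8c to Cox8a 2.73 to 4.25), and D16 and D30 libraries lie below them and above the early groups, except that Cyct to Cycs in D30 FT 3 (0.41) is below the highest 6.5 dpp library (0.72).

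Sums of spermatocyte and round spermatid markers rose, like the testis isoforms, from 10.5 to 22.5 dpp and from D4 to D16. Spermatid markers rose further to 36.5 dpp, a step at which no testis isoform passed. The 6 spermatocyte markers (Sycp1, Sycp3, Hspa2, Piwil1, Spo11 and Ccna1) gave sums of 215 to 262 CPM in the 10.5 dpp libraries, 3276 to 3984 CPM in those of 22.5 dpp and 1943 to 2629 CPM in those of 36.5 dpp. Cultured explants gave 330.1 to 384 CPM on D4, 1342 to 2112 CPM on D16 and 800.4 to 1850.2 CPM on D30. The 6 round spermatid markers (Acrv1, Acr, Tssk1, Spaca1, Catsper1 and Pgk2) summed to 4.42 to 6.11, 256 to 609, 2227 to 2582, 4.65 to 5.01, 79.8 to 484 and 199.9 to 607 CPM in the same groups. The 6 elongating spermatid markers, protamines among them, summed to 26.2 to 168 CPM at 22.5 dpp and 19905 to 25691 CPM at 36.5 dpp. In culture these 6 summed to 7.08 to 117 CPM at D16 and 459 to 2128 CPM at D30. The 5 spermatogonial markers went the other way, from 1101 to 1145 CPM at 10.5 dpp to 108 to 111 CPM at 36.5 dpp and 399.9 to 582 CPM at D30. In bulk tissue, fewer cells of a type and less RNA per cell cannot be told apart, and the part of cell make-up in these results was not tested.

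The upstream sequences of these genes are shown because the testis genes rose together at 22.5 dpp and at D16, so that a reader can compare them with those of their partners. No entry was given for Cox8c and Ndufa4l2. RefSeq starts were found for 79 of the 97 members, 84 starts in all. Each line gives the 250 bases before the start on GRCm38.p6, read 5′ to 3′ on the gene's strand. Capitals mark matches, on either strand, to the letters of 7 short motifs. These were an NRF1 site (GCATGCGC), an ETS site (CCGGAAG), an ERR site (AAGGTCA), a YY1 site (AAGATGGC), a cyclic AMP response element (TGACGTCA), a MYB core (AACGG) and the CCAAT box (CCAAT), of which the last was added after the sequences had been read.
Cyct, chr2:76360454-76360703, strand -: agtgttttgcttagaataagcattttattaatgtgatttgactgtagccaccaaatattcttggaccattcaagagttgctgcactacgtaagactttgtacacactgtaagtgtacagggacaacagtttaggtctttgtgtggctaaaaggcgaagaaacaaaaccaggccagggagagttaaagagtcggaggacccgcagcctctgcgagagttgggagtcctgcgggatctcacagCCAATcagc
Cycs, chr6:50566570-50566819, strand -: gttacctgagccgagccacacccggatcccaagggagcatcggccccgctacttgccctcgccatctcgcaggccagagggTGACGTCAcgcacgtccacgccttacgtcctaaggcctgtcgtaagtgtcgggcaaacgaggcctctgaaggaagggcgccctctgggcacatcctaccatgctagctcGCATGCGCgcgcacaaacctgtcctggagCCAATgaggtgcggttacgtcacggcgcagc
Cox6b2, chr7:4753095-4753344, strand -: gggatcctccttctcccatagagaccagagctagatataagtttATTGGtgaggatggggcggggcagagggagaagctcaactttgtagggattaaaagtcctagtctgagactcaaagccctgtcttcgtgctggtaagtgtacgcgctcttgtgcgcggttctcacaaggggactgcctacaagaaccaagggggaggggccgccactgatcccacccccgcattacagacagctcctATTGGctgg
Cox6b1, chr7:30626115-30626364, strand -: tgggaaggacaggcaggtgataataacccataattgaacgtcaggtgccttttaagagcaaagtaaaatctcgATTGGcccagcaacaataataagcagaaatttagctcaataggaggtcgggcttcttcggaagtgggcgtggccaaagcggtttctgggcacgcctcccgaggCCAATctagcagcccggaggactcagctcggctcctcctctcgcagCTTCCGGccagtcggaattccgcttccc
Cox7b2, chr5:71548206-71548455, strand -: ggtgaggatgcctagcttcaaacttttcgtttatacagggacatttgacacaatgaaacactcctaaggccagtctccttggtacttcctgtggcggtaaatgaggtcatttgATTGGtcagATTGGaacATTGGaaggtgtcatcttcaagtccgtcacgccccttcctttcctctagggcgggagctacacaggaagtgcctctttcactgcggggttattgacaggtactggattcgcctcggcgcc
Cox7b, chrX:106015450-106015699, strand +: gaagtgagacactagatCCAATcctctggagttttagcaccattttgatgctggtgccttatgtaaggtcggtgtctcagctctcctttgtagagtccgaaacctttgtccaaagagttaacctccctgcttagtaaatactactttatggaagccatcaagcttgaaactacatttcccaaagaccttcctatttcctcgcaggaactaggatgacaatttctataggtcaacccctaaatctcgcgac
Ndufaf3, chr9:108567437-108567686, strand -: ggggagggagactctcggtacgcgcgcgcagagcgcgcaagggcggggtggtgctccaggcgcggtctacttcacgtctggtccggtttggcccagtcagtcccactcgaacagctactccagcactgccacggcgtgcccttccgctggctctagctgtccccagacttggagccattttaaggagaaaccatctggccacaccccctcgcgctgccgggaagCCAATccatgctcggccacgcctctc
Cox8a, chr19:7217617-7217866, strand -: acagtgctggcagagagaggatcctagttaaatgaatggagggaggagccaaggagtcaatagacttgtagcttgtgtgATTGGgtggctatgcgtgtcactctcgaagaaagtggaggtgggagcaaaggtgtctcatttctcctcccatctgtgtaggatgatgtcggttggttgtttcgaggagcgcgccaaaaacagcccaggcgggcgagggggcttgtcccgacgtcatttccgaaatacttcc

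The NRF1 letters were found before 10 of the 84 member starts and 2.26% of all 32851 starts, the ETS letters before 14 of the 84 member starts and 6.91% of all 32851 starts, and the cyclic AMP response element before 5 of the 84 member starts and 1.55% of all 32851 starts. The remaining shares were 5 of the 84 member starts and 4.08% of all 32851 starts for ERR, 1 of the 84 member starts and 1.56% of all 32851 starts for YY1, 23 of the 84 member starts and 14.5% of all 32851 starts for MYB and 37 of the 84 member starts and 33.8% of all 32851 starts for the CCAAT box. Cycs held the NRF1 and the cyclic AMP letters and a CCAAT box, and Cox6b1 the ETS letters and 2 CCAAT boxes. In Cyct, Cox6b2, Cox7b2 and Ndufaf3 the CCAAT box was the one motif of the 7 that matched, and Cox7b and Cox8a were alike in this. A match describes these letters only and is not a binding site, and the absence of one says only that the letters are not in this window.

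Ndufaf3, which encodes a factor needed to assemble complex I, was behind Cox8c in the size of its rise at 22.5 dpp. Its exons share 48 bases with those of Impdh2 on the other strand, and without a stated strand setting reads from there cannot be told apart. It was at 12.0, 10.8, 10.7 and 17.036 CPM at 6.5 dpp and 10.1, 12.3 and 11.9 CPM at 10.5 dpp, then at 354, 225 and 396 CPM at 22.5 dpp and 322 and 266 CPM at 36.5 dpp (log2 fold change 5.14 ± 0.44, adjusted p = 2.71e-08 for 22.5 against 10.5 dpp). In culture it was at 10.1, 11.2 and 13.9 CPM at D4, 207 and 87.3 CPM at D16 and 175, 187, 69.4 and 141 CPM at D30, and the rise from D4 to D16 passed (log2 fold change 3.71 ± 0.43, adjusted p = 2.79e-06). Every D16 and D30 library lay below every 22.5 and 36.5 dpp library, and the gene was lower than in vivo at both ages (log2 fold change -1.31 ± 0.43, adjusted p = 0.0332 at D16; log2 fold change -1.66 ± 0.37, adjusted p = 0.000834 at D30). The D16 call was lost without 22.5 dpp FT 1 (adjusted p = 0.0938), 22.5 dpp FT 3 (adjusted p = 0.106) and D16 FT 2 (adjusted p = 0.345), and both calls with 6.5 dpp FT 1 kept. Of the 7 other assembly factors named Ndufaf, Ndufaf2 rose by 1.11 and Ndufaf7 by 0.95 on the log2 scale at 22.5 dpp (adjusted p = 0.00739 and 0.000236, edgeR), and the other 5 did not pass there. Ndufaf4 was higher at D30 than at 36.5 dpp (log2 fold change 1.69 ± 0.38, adjusted p = 0.000905), with 18.8, 31.6, 25.4 and 39.3 CPM against 7.90 and 3.63 CPM.

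Ndufa4l2 and Cox4i2 encode alternatives to the complex IV subunits Ndufa4 and Cox4i1, and both are known to respond to low oxygen in other tissues. They were the 2 members called at D4 against 10.5 dpp, where 8.1% of the 19255 genes tested passed in either direction (4.92% higher, 3.18% lower), and also the 2 called higher at D4 than at 6.5 dpp. These shares are of the fit of all 21 libraries. A fit of only the groups compared called 35 members at D4 against 10.5 dpp, and the share of all genes in that fit is not given here. With 6.5 dpp FT 1 kept, neither Ndufa4l2 nor Cox4i2 passed at D4 against 10.5 dpp. Exons of Ndufa4l2 share 32 bases with those of Shmt2 on the other strand, and reads from there cannot be told apart. Ndufa4l2 was at 3.64, 4.81 and 4.22 CPM at 10.5 dpp and 11.1, 15.4 and 16.2 CPM at D4 (log2 fold change 1.84 ± 0.38, adjusted p = 0.00449). It had been at 3.22, 3.10, 3.43 and 5.04 CPM at 6.5 dpp (log2 fold change 1.95 ± 0.35, adjusted p = 0.000595 for D4 against 6.5 dpp). In vivo it was at 27.2, 12.2 and 23.8 CPM at 22.5 dpp and 33.0 and 24.5 CPM at 36.5 dpp (log2 fold change 2.64 ± 0.39, adjusted p = 1.61e-05 for 22.5 against 10.5 dpp). In culture it was at 25.0 and 10.8 CPM at D16 and 16.7, 17.3, 9.19 and 13.010 CPM at D30, below every 36.5 dpp library at D30 (log2 fold change -1.66 ± 0.37, adjusted p = 0.000819). The culture effect on Ndufa4l2 at D16 differed from that at D4 (-2.25 ± 0.56 on the log2 scale, adjusted p = 0.02 for the difference of contrasts, edgeR), a call lost without 10.5 dpp FT 1 (adjusted p = 0.0517), 22.5 dpp FT 1 (adjusted p = 0.0615), 22.5 dpp FT 3 (adjusted p = 0.0506) and D16 FT 2 (adjusted p = 0.133). Ndufa4 itself went from 104, 115 and 123 CPM at 10.5 dpp to 33.0, 48.4 and 47.8 CPM at 22.5 dpp without overlap, a difference that did not pass (log2 fold change -1.12 ± 0.60, adjusted p = 0.114).

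Cox4i2 was low in all groups and higher in culture at every age. It was at 1.68, 2.28 and 2.07 CPM at 10.5 dpp, 0.739, 1.14 and 0.790 CPM at 22.5 dpp and 0.327 and 0.437 CPM at 36.5 dpp. Explants had 3.83, 5.78 and 6.68 CPM on D4, 6.84 and 3.21 CPM on D16 and 2.46, 3.02, 2.27 and 4.65 CPM on D30. No culture library overlapped with the in vivo libraries of its age. The log2 fold changes were 1.52 ± 0.36 at D4, 2.35 ± 0.40 at D16 and 2.37 ± 0.46 at D30 (adjusted p = 0.0127, 0.000649 and 0.000229, edgeR), and Cox4i2 fell in vivo at 22.5 dpp (log2 fold change -0.89 ± 0.37, adjusted p = 0.0473). The D4 call was lost without 10.5 dpp FT 1 (adjusted p = 0.073), 10.5 dpp FT 3 (adjusted p = 0.057) and D4 FT 3 (adjusted p = 0.0609), and the in vivo fall without any 1 of 14 libraries (adjusted p up to 0.127). Cox4i1 was far more abundant, at 224 to 1193 CPM, and passed in none of the 9 comparisons. Of the muscle isoforms, Cox8b had at most 3 counts in any library and was left out of the tests, Cox6a2 fell at 22.5 dpp (log2 fold change -1.52 ± 0.43, adjusted p = 0.00509) within 0.132 to 2.47 CPM and Cox7a1 at 1.49 to 18.9 CPM. The 3 markers of peritubular cells, the smooth-muscle-like cells around the tubules, summed to 831 to 921 CPM at 10.5 dpp and 360.1 to 555 CPM at D4, to 278 to 449 CPM at 22.5 dpp and 249 to 256 CPM at D16, and all 3 passed as higher at D30 than at 36.5 dpp (67.6 to 74.4 CPM in vivo, 225 to 458 CPM in culture). The 3 of endothelial cells summed to 167 to 189 CPM at 10.5 dpp and 215 to 235 CPM at D4, to 32.6 to 53.1 CPM at 22.5 dpp and 192 to 255 CPM at D16, and to 14.0 to 15.1 CPM at 36.5 dpp and 128 to 171 CPM at D30. They passed as higher in 2 of 3 at D4, 3 of 3 at D16 and 3 of 3 at D30, with median log2 fold changes of 0.85, 2.51 and 2.98. The part of both lists in the changes of Ndufa4l2 and Cox4i2 was not tested.

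**Figure D4:**
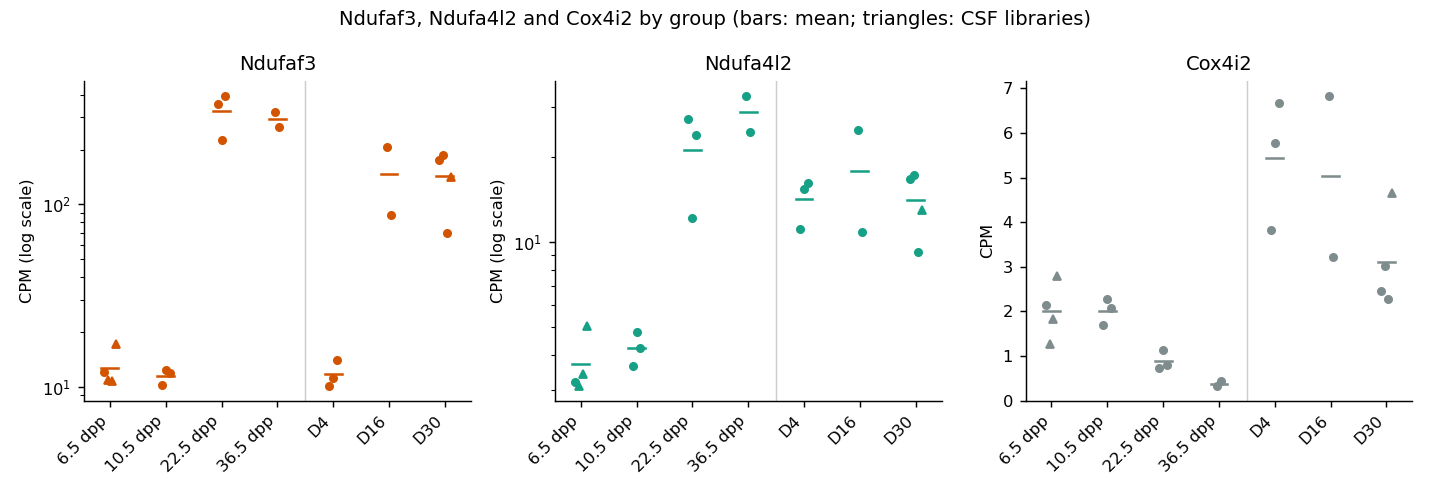
Levels of Ndufaf3 and Ndufa4l2 (CPM, log axes) and Cox4i2 (CPM, linear axis from 0) by group; each point is a library, bars are group means and triangles are frozen (CSF) libraries. Ndufaf3 stands at 10.1 to 17.036 CPM in the early groups and 225 to 396 CPM at 22.5 and 36.5 dpp, Ndufa4l2 is already at 11.1 to 16.2 CPM at D4, and Cox4i2 is at 2.27 to 6.84 CPM in the cultures against 0.327 to 2.28 CPM in vivo at the same ages.

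Of the 96 members tested, 54 were called in at least 1 of the 9 comparisons, namely 19 of complex I, 6 assembly factors, 6 of complex III, both cytochromes c, 13 of complex IV and 8 of ATP synthase, beside 88% of all 19255 genes. No subunit of complex II, succinate dehydrogenase, passed in any of the 9, with summed levels of 436 to 1210.0 CPM. The comparison of 22.5 against 10.5 dpp gave 24 called (19 higher and 5 lower), beside 61.5% of all genes tested in either direction, 33.6% higher and 27.9% lower. The median log2 fold change of the members was 0.18 and that of all genes 0.06. The split of these calls moved with the scaling. The factors used (trimmed mean of M values, TMM) shifted fold changes from those on library totals by 0.30 on the log2 scale here and by 0.51 for 36.5 against 22.5 dpp, and shifted them by -0.16 at D16 and -0.64 at D30 against in vivo. On library totals the calls were 26 (12 higher, 14 lower). They were 53 (36 higher, 17 lower) without the 5 libraries high in short transcripts, and with the index as a covariate 58 (39 higher, 19 lower). The count was 15 without 10.5 dpp FT 1 or FT 3 and 14 without 22.5 dpp FT 3. In complex I, 7 of 37 were called higher and 0 lower. Ndufa12, an accessory subunit, rose (log2 fold change 1.68 ± 0.34, adjusted p = 0.000366), and Ndufv2, Ndufv1 and Ndufs1, which carry the cofactors that take electrons from NADH, rose by 1.33, 0.49 and 0.50 on the log2 scale. On library totals Ndufv1 and Ndufs1 did not pass, and the calls on Ndufv2 and Ndufv1 were lost without 10.5 dpp FT 1 or FT 3 or 22.5 dpp FT 3 (adjusted p up to 0.0638 and 0.0927).

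In complex III, 2 of 9 were called higher and 1 lower at 22.5 dpp. Uqcrc1, a core protein of complex III, rose (log2 fold change 1.14 ± 0.24, adjusted p = 0.000508), as did Uqcrfs1, the Rieske iron-sulfur protein (log2 fold change 0.79 ± 0.29, adjusted p = 0.023), while Cyc1, cytochrome c1, fell (log2 fold change -0.48 ± 0.16, adjusted p = 0.0163). Cyc1 was at 194, 209 and 199 CPM at 10.5 dpp, 96.960, 129 and 128 CPM at 22.5 dpp and 46.9 and 56.0 CPM at 36.5 dpp, with no overlap between ages. The call on Uqcrfs1 was lost on library totals and without 10.5 dpp FT 1 (adjusted p = 0.0597), 10.5 dpp FT 3 (adjusted p = 0.0669), 22.5 dpp FT 1 (adjusted p = 0.0581) and 22.5 dpp FT 3 (adjusted p = 0.0785), and that on Cyc1 without 10.5 dpp FT 2 (adjusted p = 0.0527) and 22.5 dpp FT 1 (adjusted p = 0.0814). In complex IV, 5 of 19 were called higher and 4 lower. Among the higher was Cox5a (log2 fold change 1.14 ± 0.35, adjusted p = 0.0086), which did not pass without 22.5 dpp FT 3 (adjusted p = 0.0891). Exons of Cox5a share 269 bases with those of Gm26631 on the other strand. Of ATP synthase, 1 of 17 were called higher and 0 lower. Atp5b, the catalytic beta subunit and one of the most abundant members, was at 1123, 1216 and 1183 CPM at 10.5 dpp, 994, 1017 and 1024 CPM at 22.5 dpp and 877 and 719 CPM at 36.5 dpp, and the step to 22.5 dpp did not pass (log2 fold change 0.08 ± 0.20, adjusted p = 0.732).

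Between 22.5 and 36.5 dpp, 17 members were called higher and 4 lower, beside 23.3% and 27.5% of all genes (50.7% in either direction). The medians were 0.60 for members and -0.13 for all genes. This split moved with the scaling and with single libraries. On library totals it was 17 (4 higher, 13 lower), without the 5 libraries high in short transcripts 30 (18 higher, 12 lower), with the index as a covariate 39 (8 higher, 31 lower), and without a single library it was 5 (36.5 dpp FT 1), 10 (22.5 dpp FT 2) or 40 (6.5 dpp CSF 3). Among the rises were Atp5md, a small subunit of the ATP synthase dimer (log2 fold change 2.18 ± 0.62, adjusted p = 0.00746), with 5.86, 5.24 and 4.87 CPM at 22.5 dpp and 27.2 and 7.12 CPM at 36.5 dpp, and Atp5mpl, another (log2 fold change 1.70 ± 0.44, adjusted p = 0.00406). Cox7c, an accessory subunit of complex IV, was called higher (log2 fold change 1.88 ± 0.33, adjusted p = 0.000227), with 1.87, 3.03 and 2.12 CPM and 9.06 and 3.06 CPM, the lowest at 36.5 dpp barely above the highest at 22.5 dpp. It has a named pseudogene, so that its level, 1.87 to 9.06 CPM over all libraries, is uncertain. The calls on Atp5md and Atp5mpl were lost without 36.5 dpp FT 1 (adjusted p = 0.305) for the former and 36.5 dpp FT 1 (adjusted p = 0.104) for the latter. Falls were seen in Atp5g2, a gene of subunit c (log2 fold change -0.999 ± 0.34, adjusted p = 0.0222), Ndufab1, the acyl carrier protein (log2 fold change -0.86 ± 0.25, adjusted p = 0.00788), and Cyc1 (log2 fold change -0.68 ± 0.18, adjusted p = 0.00541). Atp5g2 was low, with 28, 56 and 24 counts at 22.5 dpp and 10 and 13 counts at 36.5 dpp. The fall of Atp5g2 was lost without 22.5 dpp FT 2 (adjusted p = 0.0909), 36.5 dpp FT 1 (adjusted p = 0.124) and 36.5 dpp FT 2 (adjusted p = 0.061), that of Ndufab1 without 36.5 dpp FT 2 (adjusted p = 0.106) and that of Cyc1 without 36.5 dpp FT 1 (adjusted p = 0.0774).

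**Figure D5:**
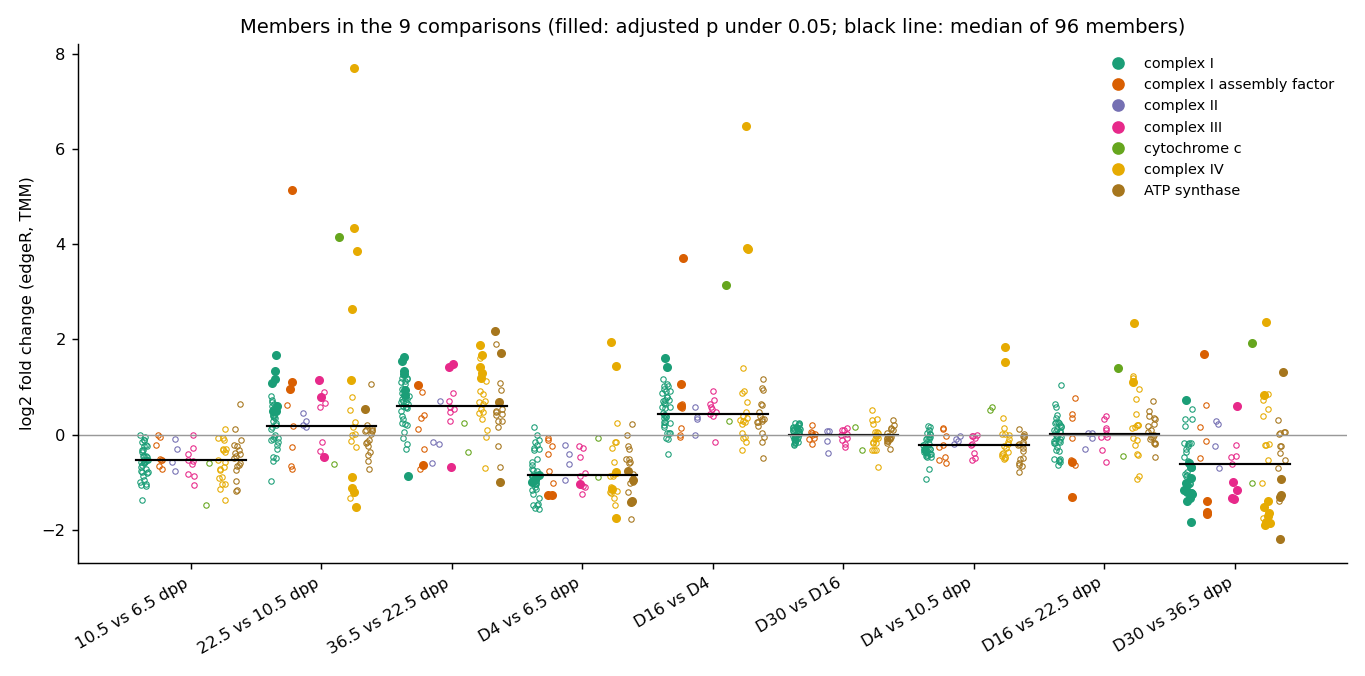
Log2 fold change (edgeR with TMM factors) of the 96 members tested in each of the 9 comparisons; colours give the complex, filled points passed an adjusted p of 0.05 and black lines are the median of the members. Cox8c, Ndufaf3, Cox6b2, Cyct and Cox7b2 stand above the rest at 22.5 against 10.5 dpp (up to 7.71) and at D16 against D4 (up to 6.48), and no member is filled at 10.5 against 6.5 dpp or D30 against D16.

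No member passed at 10.5 against 6.5 dpp or at D30 against D16. At 10.5 against 6.5 dpp, edgeR called 0 of 96 (at an unadjusted p under 0.05 there were 11, and DESeq2 called 1), where 1.14% of all genes passed (0.675% higher, 0.467% lower). Of the 96, 93 had a negative fold change, with a median of -0.54. The share of all genes with a negative fold change is not given here. The median of the members was -0.05 without the 5 libraries and 0.009 with the index as a covariate, beside 0 and -0.002 for all genes. At D30 against D16, edgeR called 0 (0 at an unadjusted p under 0.05, and 0 by DESeq2), where 1.79% of all genes passed (1.46% higher, 0.332% lower). From D4 to D16, 9 members were called, all higher, beside 18.4% of all genes higher and 5.48% lower (23.9% in either direction). They were the 4 testis isoforms and Ndufaf3 with Ndufc1 (log2 fold change 1.61 ± 0.50, adjusted p = 0.0243), Ndufa12 (log2 fold change 1.43 ± 0.37, adjusted p = 0.00735), Ndufaf2 and Ndufaf7. Without the 5 libraries high in short transcripts, where D16 has 1 library that is assumed to vary like the other groups, the calls were the 4 isoforms and Ndufaf3. The count was 4 without D16 FT 1 and 16 without 6.5 dpp CSF 3.

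At D4 against 6.5 dpp, 2 members were called higher (Ndufa4l2 and Cox4i2) and 14 lower, beside 10.8% and 10.1% of all genes (20.9% in either direction). Cox7b (log2 fold change -1.75 ± 0.61, adjusted p = 0.0477), Atp5k (log2 fold change -1.41 ± 0.49, adjusted p = 0.0472) and Atp5o, the stalk subunit of ATP synthase known as OSCP (log2 fold change -1.38 ± 0.46, adjusted p = 0.041), had the largest falls. These calls were lost without any 1 of 12 libraries for Cox7b (adjusted p up to 0.294), any 1 of 12 for Atp5k (adjusted p up to 0.219) and any 1 of 8 for Atp5o (adjusted p up to 0.212). The count was 3 without 6.5 dpp CSF 3 (2 higher, 1 lower), D4 FT 1 or D4 FT 2, 6 without D4 FT 3, 9 without any 10.5 dpp library or 22.5 dpp FT 1, 29 without 6.5 dpp FT 2 and 41 without 6.5 dpp CSF 1. DESeq2 called 45. Without the 5 libraries high in short transcripts it was 16 (2 higher, 14 lower). With the index as a covariate it was 8 (5 higher, 3 lower), so most calls were not falls in that fit. The median log2 fold change of the members was -0.85 in the fit of all 21 libraries. It was -0.32 without the 5 libraries and -0.04 with the index as a covariate. In the 4 libraries of 6.5 dpp Cox7b was at 45.3, 38.4, 73.8 and 236 CPM, the last being CSF 3, and at D4 at 25.0, 31.5 and 33.3 CPM.

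Against in vivo testes of the same age, D16 had 3 members higher and 2 lower than 22.5 dpp, beside 25.8% of all genes in either direction (14% higher, 11.8% lower). Cox4i2, Cycs and Cox8a were higher and Ndufaf3 and Ndufaf7 (log2 fold change -0.57 ± 0.21, adjusted p = 0.0495) lower. Leaving those 5 libraries out gave 24 (5 higher, 19 lower), and without any 1 library 1 to 8. The call on Ndufaf7 was lost without any 1 of 17 libraries (adjusted p up to 0.309). In the D30 libraries 7 members stood above and 32 below those of 36.5 dpp, beside 32.4% and 35% of all genes (67.4% in either direction). The median of the members was -0.61 and that of all genes -0.03. On library totals the split was 32 (21 higher, 11 lower), without the 5 libraries 56 (13 higher, 43 lower) with the index as a covariate 65 (27 higher, 38 lower), and without 36.5 dpp FT 1 alone 24 (8 higher, 16 lower). By complex, complex I had 1 of 37 higher and 14 lower, complex III 1 of 9 higher and 4 lower, complex IV 2 of 19 higher and 7 lower and ATP synthase 1 of 17 higher and 4 lower.

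Besides the isoforms, Cox5a, a subunit that surrounds the catalytic core of complex IV, was lower at D30 (log2 fold change -1.72 ± 0.35, adjusted p = 0.000362), at 41.989, 74.9, 48.3 and 90.7 CPM against 139 and 131 CPM, without overlap. Reads from the 269 exon bases that Cox5a shares with Gm26631 on the other strand cannot be told apart. Ndufa12 was lower too (log2 fold change -1.83 ± 0.34, adjusted p = 0.000149), at 18.3, 24.7, 12.5 and 21.8 CPM against 54.8 and 33.9 CPM. Atp5md was lower as well (log2 fold change -2.19 ± 0.57, adjusted p = 0.00254, lost without 36.5 dpp FT 1 (adjusted p = 0.225)). Cyc1 was higher (log2 fold change 0.59 ± 0.18, adjusted p = 0.00651), at 113, 104, 144 and 124 CPM against 46.9 and 56.0 CPM. Atp5g2 (log2 fold change 1.31 ± 0.33, adjusted p = 0.00207) and Ndufab1 (log2 fold change 0.73 ± 0.24, adjusted p = 0.0111) were higher as well. Atp5g2 was low in both groups, with 42, 45, 57 and 53 counts at D30 against 10 and 13 at 36.5 dpp. The call on Cyc1 was lost without 36.5 dpp FT 1 (adjusted p = 0.101) and that on Ndufab1 without 36.5 dpp FT 2 (adjusted p = 0.17). The change of the culture effect from D16 to D30 passed in 5 members (Cox7c, Atp5mpl, Ndufa13, Cox5a and Ndufab1), beside 20.1% of all genes (11.5% higher, 8.63% lower), and that from D4 to D16 in 2 (Cox8a and Ndufa4l2), beside 9.61% (5.26% higher, 4.36% lower). Without any 1 library these counts were 1 to 10 and 0 to 4. These differences use the same libraries as the comparisons they are built from.

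Freezing was not tested, with 1 fresh library at 6.5 dpp and 1 frozen library at D30. Ndufa3 and Ndufc1, accessory subunits of complex I, were at 62.8 and 32.1 CPM in the fresh 6.5 dpp library. In the thawed ones Ndufa3 was at 43.2, 62.0 and 129 CPM and Ndufc1 at 21.8, 36.5 and 68.4 CPM, so that the fresh value lay within the range of the thawed ones for both. At D30 the fresh explants had 52.0, 81.6 and 57.5 CPM of Ndufa3 and 42.9, 78.6 and 31.9 CPM of Ndufc1, and the frozen one 107 and 95.4 CPM, above them in both genes. That library also has the highest short-gene index at D30, at 0.56, and the part of the index in this was not tested.

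The mitochondrial genome encodes 13 subunits of complexes I, III, IV and V. Of these, 7 had counts enough to be tested (ND1, ND2, ND4, ND5, ND6, COX1 and CYTB), and the other 6 (COX2, COX3, ATP6, ATP8, ND3 and ND4L) are listed at 0 in nearly all libraries, which is not read as absence. All 7 were higher at D16 than at 22.5 dpp and at D30 than at 36.5 dpp, beside 14% and 32.4% of all genes higher. COX1, the catalytic subunit of complex IV, was at 1952, 2952 and 1094 CPM at 22.5 dpp, 1958 and 817 CPM at 36.5 dpp, 6838 and 4963 CPM at D16 and 4388, 5418, 5159 and 5304 CPM at D30, with no overlap between culture and in vivo (log2 fold change 1.43 ± 0.33, adjusted p = 0.00582 at D16; log2 fold change 1.24 ± 0.33, adjusted p = 0.00348 at D30). Without 36.5 dpp FT 2 the D30 calls on COX1, CYTB, ND1 and ND6 were lost (adjusted p = 0.0874, 0.111, 0.242 and 0.224, edgeR). At D16 those on CYTB and ND1 were lost without 22.5 dpp FT 3 or D16 FT 1 (adjusted p up to 0.0878 and 0.0774), and that on ND6 without 22.5 dpp FT 1, 22.5 dpp FT 3 or either D16 library (adjusted p up to 0.137). The Sertoli and endothelial markers given above were higher in the same cultures and the Leydig cell markers lower. The part of these cell types in this was not tested. At 22.5 against 10.5 dpp, ND1, ND5 and ND6 fell and none of the 7 rose, and the calls on ND1 and ND6 were each lost without any 1 of 13 libraries (adjusted p up to 0.193 and 0.197). The median log2 fold change of the 7 was -0.54 at that step, and at D16 and D30 against in vivo it was 1.38 and 1.24, beside 0.02 and -0.61 for the nuclear members.

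Other genes of mitochondrial energy supply were taken from lists made with the members. Ldhc, the testis lactate dehydrogenase, was at 2.25, 1.81 and 2.40 CPM at 10.5 dpp, 3995, 2053 and 3698 CPM at 22.5 dpp, 6592 and 4069 CPM at 36.5 dpp, 2842 and 819 CPM at D16 and 2323, 3158, 806 and 2527 CPM at D30 (log2 fold change 10.88 ± 0.68, adjusted p = 9.23e-10 for 22.5 against 10.5 dpp; log2 fold change -1.89 ± 0.45, adjusted p = 0.00139 for D30 against 36.5 dpp). Pdha2, the testis form of the pyruvate dehydrogenase E1 alpha subunit, rose (log2 fold change 5.01 ± 0.38, adjusted p = 6.45e-09) while Pdha1, the general form on the X chromosome, fell (log2 fold change -1.16 ± 0.18, adjusted p = 2.75e-05), and Pdha1 was higher in culture at D30 (log2 fold change 1.72 ± 0.21, adjusted p = 2.32e-06), at 32.3, 29.6, 48.1 and 40.3 CPM against 7.04 and 7.54 CPM. Slc25a4, an ADP/ATP carrier that exports the ATP made, was at 80.5, 128 and 90.0 CPM at 22.5 dpp, 65.5 and 37.8 CPM at 36.5 dpp, 261 and 229 CPM at D16 and 188, 221, 243 and 351 CPM at D30 (log2 fold change 1.16 ± 0.31, adjusted p = 0.0135 at D16; log2 fold change 1.64 ± 0.32, adjusted p = 0.000275 at D30). Slc25a31, the carrier of male germ cells, was at 30.5 to 32.4 CPM at 10.5 dpp and 26.4 to 35.7 CPM at 22.5 dpp, which overlap (log2 fold change 0.26 ± 0.26, adjusted p = 0.393). The Slc25a4 call at D16 was lost without 22.5 dpp FT 1 (adjusted p = 0.0596), 22.5 dpp FT 3 (adjusted p = 0.0509) and D16 FT 2 (adjusted p = 0.0567).

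Of 40 further assembly factors of the complexes tested, 8 rose and 9 fell at 22.5 dpp, beside 33.6% and 27.9% of all genes, and 12 were higher and 10 lower at D30 than at 36.5 dpp, beside 32.4% and 35%. Of 13 genes of the citrate cycle, 6 rose and 4 fell at 22.5 dpp, and of 12 regulators of mitochondrial genes, beside the same shares of all genes, 1 rose (Esrra, log2 fold change 1.16 ± 0.20, adjusted p = 8.00e-05) and 5 fell, among them Nrf1 (log2 fold change -0.62 ± 0.13, adjusted p = 0.000374) and Tfam, the packaging factor of mitochondrial DNA (log2 fold change -1.27 ± 0.28, adjusted p = 0.000715). Tfam then rose at 36.5 dpp (log2 fold change 3.35 ± 0.31, adjusted p = 3.64e-07), to 187 and 125 CPM from 19.5, 25.9 and 20.3 CPM, and was lower at D30 than at 36.5 dpp (log2 fold change -2.28 ± 0.28, adjusted p = 2.69e-06), at 48.1, 55.1, 42.4 and 53.6 CPM. Counts by gene do not separate transcripts, so which form of Tfam changed cannot be told. Ppargc1b, a coactivator of mitochondrial genes, took the same course (log2 fold change 2.80 ± 0.39, adjusted p = 2.28e-05 at 36.5 against 22.5 dpp; log2 fold change -2.33 ± 0.35, adjusted p = 1.98e-05 at D30 against 36.5 dpp). Cs, citrate synthase, fell at 36.5 dpp (log2 fold change -0.81 ± 0.16, adjusted p = 0.000542).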

How the data were processed

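Gene counts were deposited as 1 table of raw counts of 23 libraries, which the authors made with STAR 2.7.3a on GRCm38 and HTSeq 0.12.4 (intersection-nonempty mode; strand setting not given in the sources used here). Reads of a gene and of an overlapping gene on the other strand therefore cannot be told apart, which touches exons of 24 of the 96 members with exons in the annotation. Among them are Cox5a (269 bases shared with Gm26631), Ndufs1 (248 with Ino80dos) and Ndufab1 (123 with Gm44986). Levels were computed here as counts scaled to the library total (CPM). Genes kept by filterByExpr over 7 groups (19255, with 96 of 97 members) were tested with edgeR 4.0.16 (quasi-likelihood, TMM factors, 1 fit of 21 libraries, R 4.3.3), p-values were adjusted by Benjamini-Hochberg over all genes tested, and an adjusted p under 0.05 was called. Errors after ± are SD for ratios. For fold changes they are standard errors worked back from the fold change and the F statistic of its test.

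Members and lists were chosen with earlier results of these data known. Genes named are tissue isoforms and their partners, core subunits, the 3 highest and 3 lowest called members per comparison, Ndufa3 and Ndufc1, and genes of the other lists. Ndufa12, Ndufaf2 and the CCAAT motif were chosen after their values were seen. Alternatives were DESeq2 1.42.0, RLE factors, library totals, no filter, other sets of libraries, each library left out, other thresholds and a replicate block. Promoters came from RefSeq on GRCm38.p6 and exon lengths from the GENCODE annotation of that build. Reads of members with a named pseudogene (11 of 97, such as Cycs, Cox7c, Atp5k and Ndufab1) may be split between copies, and their levels are uncertain. Copies that do not carry the symbol of the member were not searched for.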

Additional observations from a re-analysis of the deposited data

Results flagged for a closer look

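Dixon's ratio was applied to 42 sets of 4 values, those of the 6.5 dpp and of the D30 libraries. Chance picks about 1 in 20 of independent sets. These sets were not independent, since the sums hold genes that were also compared alone. All 8 sets flagged were of 6.5 dpp, and in each the 6.5 dpp CSF 3 library stood far from the other 3. It held Cyct at 34.2 CPM against 10.4 to 12.8 in the others, Cox6b1 at 463 CPM against 106 to 165, Cox8a at 179 CPM against 114 to 118, Ndufa4l2 at 5.04 CPM against 3.10 to 3.43 and Ndufa4 at 493 CPM against 91.1 to 158. Its sums were 2463 CPM against 870.2 to 1115 for complex III, 4095 CPM against 1214 to 1640.1 for complex IV and 62.3 CPM against 16.6 to 24.3 for cytochrome c. The same library has the highest short-gene index, and the part of the index in these values was not tested.

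The effect of culture differed between ages in 7 members, by the difference of contrasts in edgeR. From D4 to D16 it changed by 1.35 for Cox8a (adjusted p = 0.0278) and -2.25 for Ndufa4l2 (adjusted p = 0.02) on the log2 scale. From D16 to D30 it changed by -2.04 for Cox7c (adjusted p = 0.0057), -1.51 for Ndufa13 (adjusted p = 0.00666), -1.79 for Atp5mpl (adjusted p = 0.0446), -1.50 for Cox5a (adjusted p = 0.0488) and 0.99 for Ndufab1 (adjusted p = 0.0465). The Cox8a call was lost without any 1 of 8 libraries (adjusted p up to 0.11), and that on Ndufa4l2 without 10.5 dpp FT 1 (adjusted p = 0.0517), 22.5 dpp FT 1 (adjusted p = 0.0615), 22.5 dpp FT 3 (adjusted p = 0.0506) and D16 FT 2 (adjusted p = 0.133). Of those from D16 to D30, Cox7c did not pass without 36.5 dpp FT 1 (adjusted p = 0.0879) and Ndufa13, whose exons share 375 bases with those of Tssk6 on the other strand, not without D16 FT 1 (adjusted p = 0.0593). The remaining ones fell short without any 1 of 14 libraries (adjusted p up to 0.282) for Atp5mpl, any 1 of 16 libraries (adjusted p up to 0.183) for Cox5a and any 1 of 16 libraries (adjusted p up to 0.237) for Ndufab1.

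The unused 6.5 dpp FT 1 library held germ cell genes far above the 4 libraries of its age. Cox8c was at 213 CPM against 2.02 to 3.39, Cox6b2 at 150.3 CPM against 13.8 to 24.9, Cox7b2 at 102 CPM against 11.9 to 69.026, Cyct at 65.1 CPM against 10.4 to 34.2, Ndufaf3 at 157 CPM against 10.7 to 17.036 and Ndufa4l2 at 15.4 CPM against 3.10 to 5.04. All 6 values lay within the range of the D30 libraries.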

How the results depend on the processing

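With a fit of only the groups compared, the members called were 55 at 22.5 against 10.5 dpp, 3 at D4 against 6.5 dpp, 15 at D16 against D4, 35 at D4 against 10.5 dpp, 8 at the D16 minus D4 culture effect and 2 at the D30 minus D16 culture effect. A fold of 4 and an adjusted p of 0.001, the thresholds of the study, gave 6 at 22.5 against 10.5 dpp, 0 at 36.5 against 22.5 dpp, 0 at D4 against 6.5 dpp, 4 at D16 against D4, 0 at D4 against 10.5 dpp, 1 at D16 against 22.5 dpp, 1 at D30 against 36.5 dpp, 0 at the D16 minus D4 culture effect and 0 at the D30 minus D16 culture effect, and a fold of 2 with an adjusted p of 0.05 gave 10 at D4 against 6.5 dpp. DESeq2 called 1 at 10.5 against 6.5 dpp, 45 at D4 against 6.5 dpp and 8 at D16 against 22.5 dpp. Fresh libraries only, where the single 6.5 dpp library is assumed to vary like the other groups, gave 37 at 36.5 against 22.5 dpp, 0 at D4 against 6.5 dpp, 16 at D16 against D4 and 16 at the D30 minus D16 culture effect, and with 6.5 dpp FT 1 kept there were 2 at D4 against 6.5 dpp, 0 at D4 against 10.5 dpp, 1 at D16 against 22.5 dpp, 0 at the D16 minus D4 culture effect and 2 at the D30 minus D16 culture effect. Library totals gave 10 at the D30 minus D16 culture effect, and no filter on low counts 3 at the D30 minus D16 culture effect. Without the 5 libraries high in short transcripts (a setting chosen, like the next, after seeing the data) there were 53 at 22.5 against 10.5 dpp, 5 at D16 against D4, 5 at D4 against 10.5 dpp, 24 at D16 against 22.5 dpp, 6 at the D16 minus D4 culture effect and 3 at the D30 minus D16 culture effect. With the short-gene index as a covariate there were 58 at 22.5 against 10.5 dpp, 39 at 36.5 against 22.5 dpp, 8 at D4 against 6.5 dpp, 16 at D16 against D4, 1 at D30 against D16, 7 at D4 against 10.5 dpp, 30 at D16 against 22.5 dpp, 65 at D30 against 36.5 dpp, 12 at the D16 minus D4 culture effect and 18 at the D30 minus D16 culture effect. Leaving out each library in turn gave 0 at 10.5 against 6.5 dpp, 14 to 35 at 22.5 against 10.5 dpp, 5 to 40 at 36.5 against 22.5 dpp, 3 to 41 at D4 against 6.5 dpp, 4 to 16 at D16 against D4, 0 at D30 against D16, 1 to 2 at D4 against 10.5 dpp, 1 to 8 at D16 against 22.5 dpp, 24 to 53 at D30 against 36.5 dpp, 0 to 4 at the D16 minus D4 culture effect and 1 to 10 at the D30 minus D16 culture effect. The log2 ratios then ranged over -2.46 to -1.94 for Cox6b2 to Cox6b1, -2.31 to -1.52 for Cox7b2 to Cox7b, -2.93 to -2.09 for Cox8c to Cox8a and -2.98 to -2.12 for Cyct to Cycs. In the absence of these 5 libraries the differences in ratio, late culture minus in vivo, were -3.20 for Cox8c to Cox8a, -2.61 for Cox6b2 to Cox6b1, -2.33 for Cox7b2 to Cox7b and -3.33 for Cyct to Cycs, each with p = 0.0833 in an exact permutation test, the smallest that 12 arrangements allow. Of 134 results on single genes, 303 of 2814 values with 1 library left out lost their call and none changed sign. Ndufv1 at D30 against 36.5 dpp changed sign on library totals, to 0.0352 on the log2 scale (adjusted p = 0.858, edgeR). No other alternative changed the sign of a call on a single gene. The cause of these differences was not tested. All these counts are of members alone. The share of all genes called under each setting is not given here, so no count can be read as particular to the members. No pairing by replicate number was seen. Deviations of same-numbered libraries had correlations from -0.541 to 0.663, with a median of 0.0103. Those of other numbers ranged from -0.682 to 0.682, with a median of -0.0103. Ranges this wide cannot exclude a pairing. With the replicate number as a block, 24 members were called at 22.5 against 10.5 dpp and 44 at D30 against 36.5 dpp, no count moved by over 1.5 times, and 8 of 134 results on single genes lost their call.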

Other observations

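Sdha, the flavoprotein of succinate dehydrogenase, was at 302 to 380.4 CPM at 6.5 and 10.5 dpp, 161 to 319 CPM at 22.5 and 36.5 dpp and 228 to 304 CPM in culture, and passed in none of the 9 comparisons. The other gene of the 7a subunit pair that most cells use, Cox7a2, was at 118 to 172 CPM at 22.5 dpp and 95.5 to 299 CPM at D16, against 5.84 to 6.05 and 6.34 to 8.30 CPM for the muscle form Cox7a1. Of the 3 genes for subunit c of ATP synthase, whose mature proteins are the same, Atp5g3 was at 213 to 233 CPM at 10.5 dpp and 98.4 to 204 CPM at 36.5 dpp, Atp5g1 at 2.03 to 5.39 and 2.03 to 2.91 CPM, and Atp5g2 at 1.4003 to 2.02 and 0.297 to 0.334 CPM.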
